A study of Mus musculus with 2 samples.

Results

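The metallothioneins and zinc transporters described here are 9 genes, taken as every non-control probe of the array whose gene name in the scanner files is Mt1, Mt2, Mtf1, Slc30a1, Slc30a5, Slc39a1, Slc39a6, Slc39a10 or Slc39a14. The rule picks 9 of the 28783 genes on the array, with 17 of its 41171 non-control probes, and 15 of these probes, covering all 9 genes, were well above background on both arrays. RNA came from RAW 264.7, a mouse macrophage-like cell line that can turn into osteoclast-like cells under the cytokine RANKL. It was hybridised to 2 Agilent whole mouse genome arrays, 1 labelled control (cells kept at ground level) and 1 labelled RCCS (cells in the rotary cell culture system, a rotating vessel that models microgravity). Per the labels, cells spent 24 h in the RCCS and were given RANKL at 80 ng/ml for 24 h. The same text stands with both samples, so it does not settle RANKL treatment of the control cells. The comparison is meant to ask what rotation in the vessel does to the transcripts of osteoclast precursors. If only the RCCS cells were given RANKL, rotation and RANKL cannot be told apart in it. With 1 array per group there is no replicate, no test between the groups and no p-value, and every difference is between these 2 arrays.

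Zinc is kept low and bound inside cells. Metallothioneins are small cysteine-rich proteins that bind zinc and copper, and MTF-1, encoded by Mtf1, is the zinc-sensing transcription factor that switches on Mt1, Mt2 and Slc30a1 through metal response elements in their promoters. ZnT proteins, encoded by Slc30a genes, move zinc out of the cytosol, into vesicles or out of the cell, and ZIP proteins, encoded by Slc39a genes, move it in. In macrophages, shifting zinc between these compartments is part of the response to infection and inflammation.

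Stretches of bases before the annotated starts of the 3 best-known MTF-1 targets are shown because the values below are read by these roles. Such a stretch need not hold the elements through which MTF-1 acts. Each is the 250 bases before the gene start, from RefSeq on GRCm38.p6, and the capitals mark the core of the metal response element, TGCACNC or TGCGCNC, on either strand (on the opposite strand it reads GNGTGCA or GNGCGCA).
Mt1, chr8:94178839-94179088, plus strand: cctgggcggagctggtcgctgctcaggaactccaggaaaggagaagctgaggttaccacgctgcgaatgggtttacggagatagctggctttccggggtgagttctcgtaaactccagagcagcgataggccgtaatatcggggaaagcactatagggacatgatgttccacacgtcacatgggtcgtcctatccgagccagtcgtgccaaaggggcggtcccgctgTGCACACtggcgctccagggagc
Mt2, chr8:94172368-94172617, plus strand: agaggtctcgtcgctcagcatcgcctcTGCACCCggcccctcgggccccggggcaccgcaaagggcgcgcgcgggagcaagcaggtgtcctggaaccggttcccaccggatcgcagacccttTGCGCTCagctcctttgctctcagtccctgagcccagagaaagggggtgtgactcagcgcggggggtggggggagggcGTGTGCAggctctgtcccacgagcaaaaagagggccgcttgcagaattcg
Slc30a1, chr1:191906531-191906780, plus strand: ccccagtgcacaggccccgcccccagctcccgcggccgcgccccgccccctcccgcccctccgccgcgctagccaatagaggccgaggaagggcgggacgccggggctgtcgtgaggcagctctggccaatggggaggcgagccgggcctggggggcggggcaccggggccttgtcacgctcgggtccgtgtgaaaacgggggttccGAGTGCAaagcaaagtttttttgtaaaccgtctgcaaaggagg

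The window of Mt2 held 3 cores, with first bases at -223, -128 and -50 from the start. The window of Mt1 held 1, at -23, and that of Slc30a1 held 1, at -43. The starts are those annotated in RefSeq and were not checked against measured starts of transcription. Cores outside a window, also those past an annotated start, were not counted, so these counts do not rank the promoters. Of the 9 genes, 7 had a window that was searched, and 4 held at least 1 core, the fourth being Slc30a5. No window of Slc39a6 or Slc39a14 was searched. The search of member windows left out a chromosome, so whether these genes have a window or a core is not described. Mtf1, Slc39a1 and Slc39a10 held 0. Among all 32851 windows, 21.4% held at least 1 core and 1.26% at least 3. Overlapping matches each count, and among windows with 55 to 75% G and C, where most of the members lie, the shares were 32.7% and 2.21%. A match is a run of letters, not a measured binding site.

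Values are given as the processed signal of each array (the scanner software's detrended intensity, not scaled between arrays) and as a log2 ratio, RCCS over control, after each array was divided by its 75th percentile (849 for control and 966 for RCCS). Intervals are 95% intervals from the error the scanner software assigns to each spot. They cover spot error only, with a median half-width of 0.28 for the 9 genes and 0.40 for all measured genes. Over all 16023 genes measured on both arrays the median log2 ratio was -0.13, so values relative to that median are given beside it. Bright probes leaned lower: the 687 other probes with a signal of at least 30000 on both arrays had a median of -0.38. Of the 18 marker genes of T cells, B cells, fibroblasts, epithelium and red cells, 10 passed the background flag on the control side and 11 on the RCCS side, with summed signals of 976 and 1286. The types did not go 1 way: fibroblast markers summed to 184 and 594 (2 and 4 of 5 passing), epithelial markers to 161 and 102, and erythroid markers to 234 and 152. All 7 macrophage markers passed it on both, with summed signals of 775882 and 920041, as did 5 of 6 osteoclast markers in control cells and 6 of 6 in RCCS cells (9841 and 14637). The part of such markers in the ratios below was not tested. A different mix of cells and a different amount of RNA per cell cannot be told apart in such samples.

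None of the 9 genes was 2-fold apart between the arrays: 0 were at least 2-fold higher on the RCCS array, where 3.88% of all measured genes were, and 0 at least 2-fold lower, where 3.76% were. The metallothionein Mt2 (1.84-fold) and the transporter gene Slc39a14 (1.52-fold) were at least 1.5-fold higher, 2 of 9 where 9.74% of all genes were, and 0 were 1.5-fold lower, where 14.8% were. The 1.5-fold call of Slc39a14 was lost under both normexp settings (0.54 in each) and with its 5′ probe (0.35), while spike-in scaling put 4 of 9 past 1.5-fold, with Mt1 (0.71) and Mtf1 (0.65) added. Log2 ratios were above 0 for 6 of 9, against 38.2% of all genes, and the median of the 9 was 0.25, or 0.38 above that of all genes. For Mt1, Mt2, Mtf1, Slc30a1 and Slc39a14 the interval lay wholly above the median of all genes, 5 of 9 where 21.3% of all genes did. Slc30a1 is among them only as the mean of probes at -0.16 and 0.65. For Slc30a5, Slc39a1, Slc39a6 and Slc39a10 the interval held that median, and for 0 of 9 it lay below, where 18.7% of all genes did. The shares of intervals are not like for like. The median half-width was 0.28 for the 9 genes and 0.40 for all measured genes, and 6 of the 9 average several probes. The list is short, and none of these shares was tested against that of all genes.

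**Figure D1:**
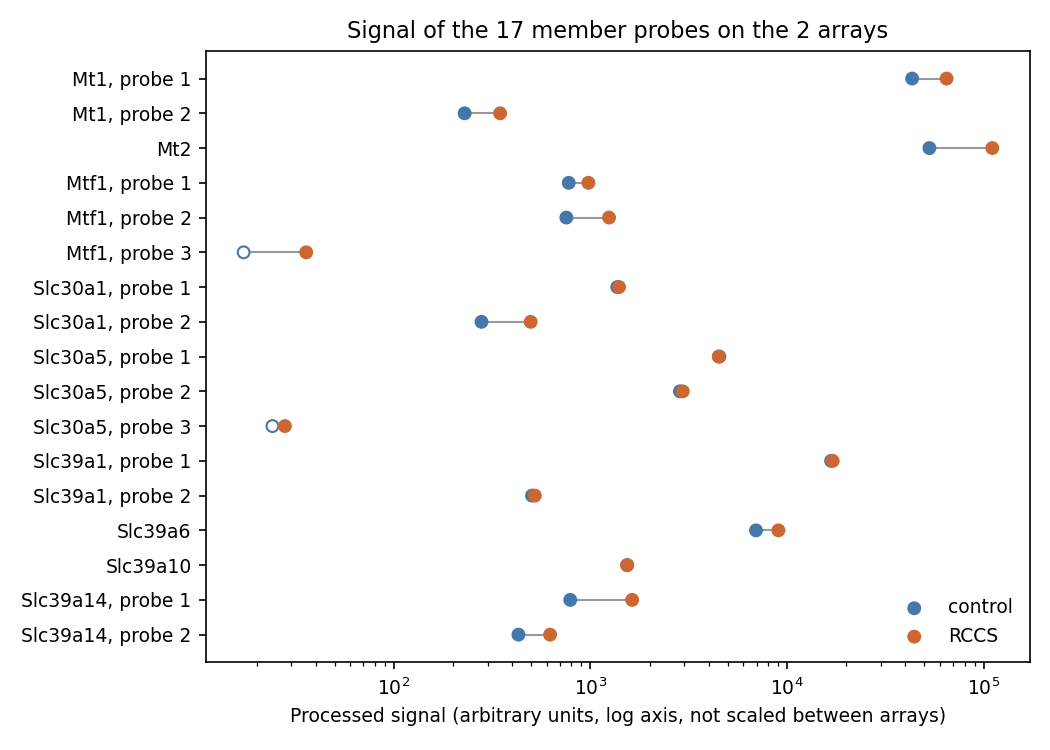
Processed signal (log axis, arbitrary units) of each of the 17 member probes on the control array (blue) and the RCCS array (orange), joined by a line; an open circle is a probe not well above background on that array. Mt2 (52975 and 110711) and the first probe of Slc39a14 (789 and 1629) show the widest gaps among filled pairs, and the measured probes of Slc30a5, Slc39a1 and Slc39a10 lie nearly on top of each other.

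The metallothioneins Mt1 and Mt2 were read at high signal. Mt2 gave 52975 in control cells and 110711 in RCCS cells, from 1 spot, a log2 ratio of 0.88 (95% interval 0.48 to 1.28; 1.01 above the median of all genes). The RCCS signal was the higher, and 95% of all measured genes had a lower ratio than Mt2. The main probe of Mt1 was printed on 10 spots, which read 42022 to 44973 (median 43111) on the control array and 62249 to 67074 (median 64492) on the RCCS array. The 2 sets of spots did not overlap, and all 10 pairs of spots gave a ratio above 0. Their log2 ratios ran from 0.36 to 0.46, with a mean of 0.40 ± 0.03 (SD over 10 spots of 1 array pair, which is not a spread between cultures). The other Mt1 probe read 229 and 347 and gave 0.41 (0.01 to 0.82). The gene value of Mt1 was thus 0.40 (0.12 to 0.69), a 1.32-fold higher signal. The Mt1 probes gave like ratios under scalings by 1 factor per array, but parted to 0.72 (main probe) and 0.38 with quantile normalization, 0.76 and 0.44 with loess on signal, and 0.71 and 0.27 with normexp and quantile normalization. The log2 ratio of Mt2 exceeded that of Mt1 by 0.47, with an interval of -0.02 to 0.96, which holds 0. Against the main probe of Mt1 alone, the gap was 0.48 under the main setting. With the mean of the Mt1 probes it was larger under 4 settings, at 0.68 (quantile), 0.66 (loess), 0.54 (normexp) and 0.70 (normexp and quantile). Mt2 was at 1.24, 1.26, 0.89 and 1.20 under these 4, in that order. The main Mt1 probe was at 0.72, 0.76, 0.41 and 0.71, and the dim one at 0.38, 0.44, 0.29 and 0.27. The larger gaps thus use the mean of Mt1 probes that parted, and no interval was computed for them. Binding of RNA of 1 metallothionein to a probe of another was not tested.

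Mt1 and Mt2 had higher ratios than most bright probes. Among the 687 other probes of at least 30000 on both arrays, 5% lay below -0.80 and 5% above 0.26. Only 6 of them had a ratio as high as Mt2, and 20 as high as the main probe of Mt1. Both probes were read from the scanner's low-gain setting on both arrays, as were 1042 other probes, whose median was -0.37 and of which 9 were as high as Mt2. Mt2 passed 2-fold under 5 of the scalings tried, at 1.24 with quantile normalization and 1.26 with loess on signal.

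**Figure D2:**
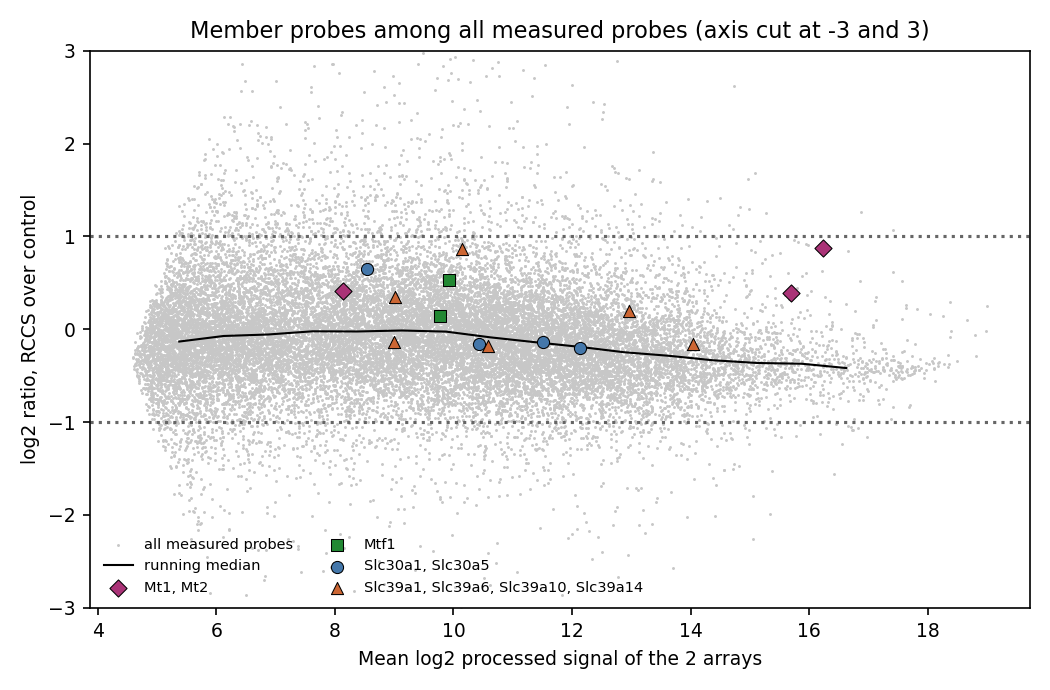
Log2 ratio (RCCS over control) of each measured probe against its mean log2 processed signal; grey dots are all 22849 measured probes (72 lie beyond the axis limits of -3 and 3), the black line is their median in bins of signal, dotted lines mark 2-fold, and coloured symbols are the member probes. The line dips below 0 at high signal, and the probes of Mt2 and the main probe of Mt1 sit well above it at the bright end, at 0.88 and 0.40.

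The higher ratio of Mt1 and Mt2 was not seen across their chromosomal neighbourhood. In the RefSeq order of chromosome 8 the metallothionein genes stand side by side as Mt4, Mt3, Mt2 and Mt1. Mt3, known mainly from brain, was at -0.35 (half-width 0.40), with signals of 378 in control cells and 338 in RCCS cells. Mt4, known from stratified epithelium, was at 0.04 (half-width 0.42), with signals of 137 and 159 on 1 of its probes, while its other probe failed the background flag on each array. Of the 5 protein-coding genes on either side, 8 were measured and lay between -0.61 and 0.05, with 7 below 0. The nearest, Bbs2 beside Mt4 and Nup93 beside Mt1, were at -0.35 and -0.56.

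**Figure D3:**
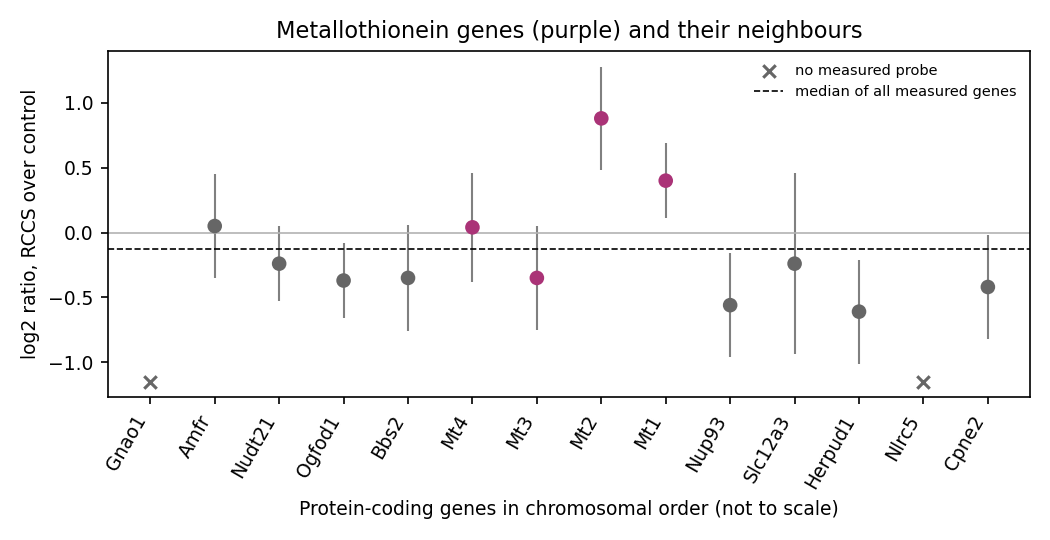
Log2 ratio (RCCS over control) of the metallothionein genes (purple) and the 5 protein-coding genes on either side (grey), in chromosomal order but not to scale; bars are 95% intervals from the scanner software error, crosses are genes with no measured probe, and the dashed line is the median of all measured genes. Mt2 at 0.88 and Mt1 at 0.40 stand above the 8 measured neighbours, which lie between -0.61 and 0.05.

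Mtf1, which encodes the zinc sensor itself, was at 0.34 (0.06 to 0.62), 1.27-fold higher on the RCCS array. Its measured probes read 775 and 976 (log2 ratio 0.15) and 754 and 1243 (0.54) on the control and RCCS arrays. The first was close to equal once scaled and the second was 1.45-fold higher. The remaining probe passed the background flag in RCCS cells alone, at 35.8 against 17.2, at least 1.3-fold higher against the lowest control signal that passed. All 3 had the higher signal on the RCCS array.

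Slc30a1 encodes ZnT1, which exports zinc across the plasma membrane, and its probes differed. One read 1369 in control cells and 1397 in RCCS cells, a log2 ratio of -0.16 (-0.56 to 0.24). The other read 279 and 496, a log2 ratio of 0.65 (0.24 to 1.05). The gene value, 0.25 (-0.04 to 0.53), is the mean of probes 0.80 apart and describes neither. With the brightest probe of each gene in place of the mean, Slc30a1 was at -0.16, the other side of 0. Slc30a5 encodes ZnT5, which loads zinc into the secretory pathway. Its probes read 4526 and 4488, and 2851 and 2948, on the control and RCCS arrays, with log2 ratios of -0.20 and -0.14. Its gene value was -0.17 (-0.45 to 0.12), 0.04 below the median of all genes, so it lay with the bulk of the array. Its remaining probe was near background, at 24.1 and 27.9, and passed the flag in RCCS cells alone (at least 1.02-fold).

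Among the 4 member importers, Slc39a14 had the highest ratio. It encodes ZIP14, which carries zinc, iron and manganese and is induced in liver by interleukin 6. One probe read 789 in control cells and 1629 in RCCS cells, a log2 ratio of 0.86 (0.46 to 1.26). The other read 430 and 623, a log2 ratio of 0.35 (-0.05 to 0.75). Both were higher on the RCCS array, by 1.81-fold and 1.27-fold, and the gene value was 0.61 (0.32 to 0.89), above that of 90.7% of measured genes. Slc39a6 and Slc39a10 encode ZIP6 and ZIP10, which are known to pair in the plasma membrane. Slc39a6 read 6951 and 9037, a log2 ratio of 0.19 (-0.21 to 0.59). Slc39a10 read 1536 in control cells and 1538 in RCCS cells, a log2 ratio of -0.18 (-0.58 to 0.22). The intervals of the pair overlap, and neither was apart from the median of all genes. Slc39a1 encodes ZIP1, a plasma membrane importer. It read 16752 and 17062 on its main probe, a log2 ratio of -0.16 (-0.56 to 0.24). Its other probe read 504 and 521, a log2 ratio of -0.14, but runs against the direction of the gene in the array's own coordinates.

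For the 3 members with measured probes in the gene's direction over 1 kb apart, the probe nearer the 3′ end had the higher ratio. For Slc30a1 the probe at 0.65 lay 3.17 kb further toward the 3′ end than that at -0.16, for Slc39a14 the probe at 0.86 lay 2.90 kb further than that at 0.35, and for Mtf1 the probe at 0.54 lay 44.14 kb further than that at 0.15. These are distances on the genome, introns included, from positions in the files whose build is not stated. The probes of Mt1 (0.17 kb apart) and of Slc30a5 (0.05 kb apart) gave nearly equal ratios. The probe of Slc30a5 that was near background lay further toward the 5′ end, at 0.03 (half-width 0.84). The same lean ran through the array. Of 4317 genes with measured probes at least 500 bases apart in the gene's direction, 81.0% had the higher ratio at the 3′ probe, the median difference was 0.25, and 25.4% had a difference of at least 0.5 that way against 4.0% the other way. Probes lay at least 0.5 apart in either direction for Slc30a1 and Slc39a14, 2 of 6 members with several measured probes, against 30.0% of such genes in all. With the 5′ probe of each gene Slc39a14 was at 0.35, Mtf1 at 0.15 and Slc30a1 at -0.16; with the 3′ probe they were at 0.86, 0.54 and 0.65, an alternative chosen after the data were seen. How far probe position sets these ratios was not tested. Mt2 has 1 probe.

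**Figure D4:**
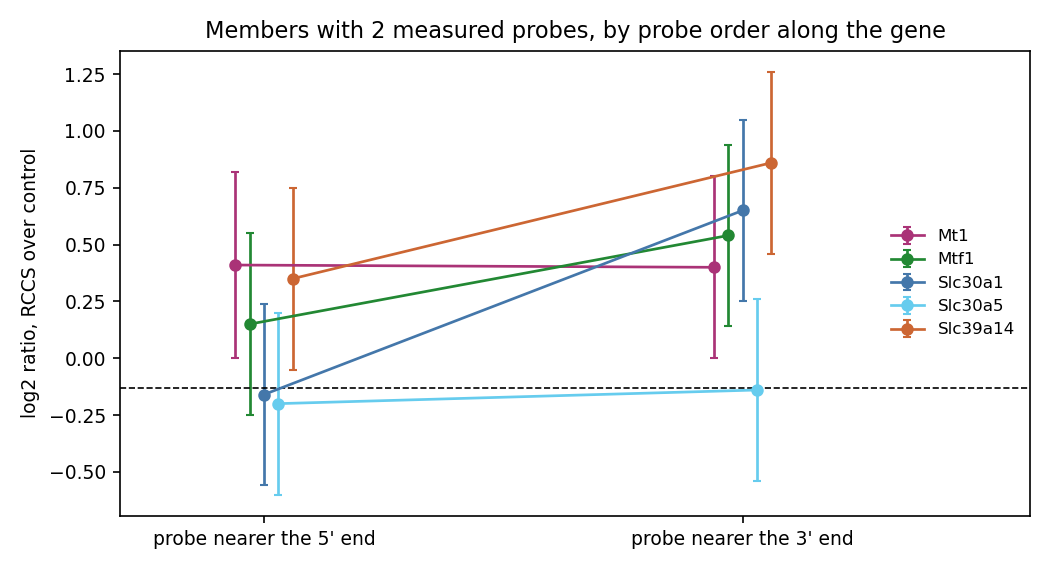
Log2 ratio (RCCS over control) of the 5 members with a pair of measured probes in the gene's direction, with the probe nearer the 5′ end on the left and the probe nearer the 3′ end on the right; bars are 95% intervals from the scanner software error and the dashed line is the median of all measured genes. The lines of Slc30a1, Slc39a14 and Mtf1 climb, by 0.80 for Slc30a1, while those of Mt1 and Slc30a5 are flat.

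The members belong to families with 20 further genes, all on the array. Of the 29 genes, 24 were measured, and Slc30a2, Slc30a3, Slc30a8, Slc30a10 and Slc39a12 were not well above background on either array. Of 13 measured ZIP genes, 10 had log2 ratios above 0, where 38.2% of all genes did, and the median was 0.37 (0.50 above all genes). The 6 measured ZnT genes had a median of -0.02 (0.11 above all genes), from -0.25 for Slc30a9 to 0.25 for Slc30a1. Which family moved more was not tested. The median of the ZnT genes was above 0 under 8 of 12 settings. The main setting is among the 12 but, at -0.02, not among the 8. Intervals lay above the median of all genes for 7 of 13 ZIP genes and 1 of 6 ZnT genes, where those of 21.3% of all genes did, and below it for 0 of 24, against 18.7%. The 7 include Slc39a8, the mean of dim probes at -0.26 and 1.16, and Slc39a2, which was near background. The 1 ZnT gene is Slc30a1, the mean of probes at -0.16 and 0.65.

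Of the 24 family genes 1 was at least 2-fold higher, a share near the 3.88% of all genes, and 0 were 2-fold lower. Slc39a4, which encodes the zinc importer ZIP4 of the gut, read 119 in control cells and 323 in RCCS cells, a log2 ratio of 1.26 (half-width 0.42) and 2.39-fold higher; it was past 2-fold under 10 of the 12 settings and lowest at 0.91. Slc39a11 read 2993 and 4986 (log2 ratio 0.55), and Slc39a3 read 450 and 729 (0.51). Slc39a9, of the secretory pathway, read 994 and 1462 (0.37). These RCCS signals were all the higher of the pair. Slc39a7, which encodes the ZIP7 channel that releases zinc from the endoplasmic reticulum, read 18706 and 23625 (0.15), close to Slc39a6. Slc39a13 was at -0.06, from probes at -0.23 and 0.10.

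Slc39a8 encodes ZIP8, an importer of immune cells, and was dim. One probe read 38.9 and 37.1 (log2 ratio -0.26), and the other 40 and 102 (1.16), so its gene value of 0.45 (half-width 0.47) averages probes that differ, again with the 3′ probe higher. Slc39a2 read 32.6 and 59.4 (0.68, half-width 0.65) and Slc39a5 30.7 and 35.8 (0.04, half-width 0.70), both near background. Among the vesicle loaders, Slc30a4 read 1313 and 1682 (0.17), Slc30a7 read 3543 and 4405 (0.13), and Slc30a6, the partner of Slc30a5, read 528 and 516 (-0.22). Slc30a9 was at -0.25. Each of these ZnT intervals held the median of all genes.

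**Figure D5:**
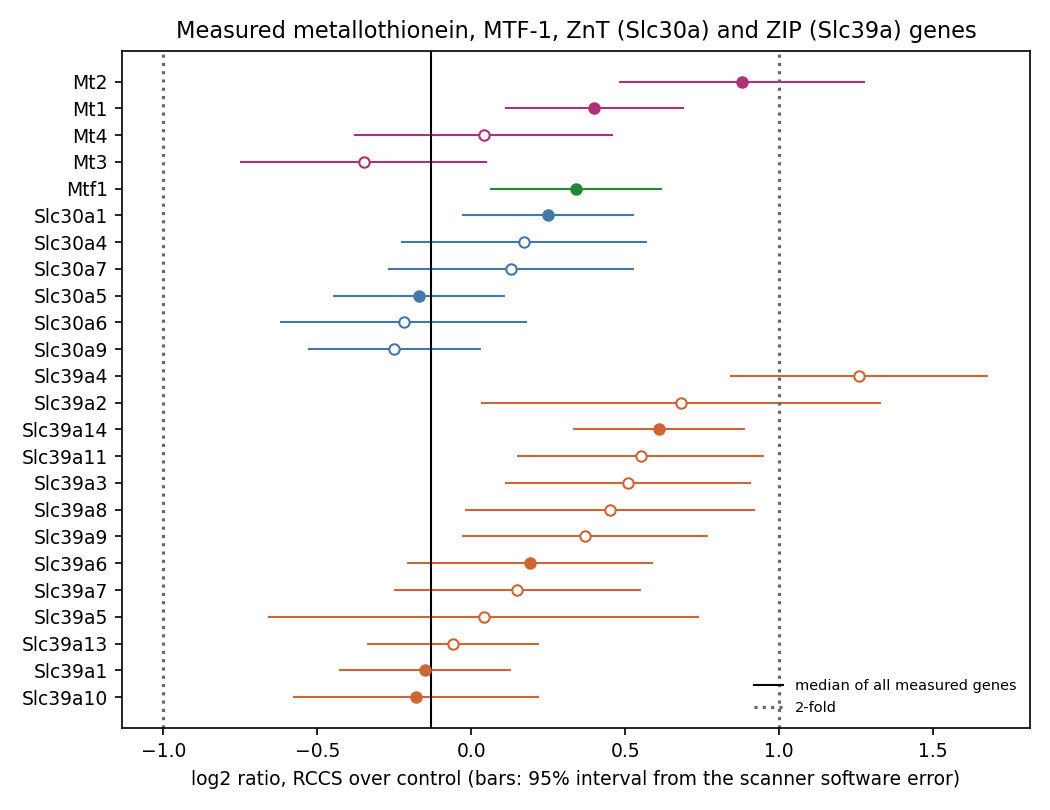
Log2 ratio (RCCS over control) of the 24 measured genes of these families, grouped as metallothioneins (purple), Mtf1 (green), ZnT genes (blue) and ZIP genes (orange); filled circles are the 9 members, open circles the other genes, bars 95% intervals from the scanner software error, the solid line the median of all measured genes at -0.13 and the dotted lines 2-fold. Slc39a4 is past the 2-fold line at 1.26, Mt2 and Slc39a14 follow among the members at 0.88 and 0.61, and the ZnT genes lie around the solid line.

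Genes around zinc handling were counted from lists, here and in the next paragraph. These lists were chosen with earlier results of these data known, so the shares of all genes beside the counts are no test. Among 5 genes linked to MTF-1 in other tissues, 1 was at least 2-fold higher and 0 lower, where 3.88% and 3.76% of all genes were, with a median of 0.68 (0.81 above all genes). Ndrg1, also induced by low oxygen, read 650 and 2192 (log2 ratio 1.57). Pgf, a growth factor gene, read 76.1 and 171 (0.98), and Gclc, of glutathione synthesis, read 2487 and 4518 (0.68). Selenow (-0.30) and Csrp1 (-0.45) were on the other side of 0. Among 11 measured copper genes 0 were 2-fold higher and 0 lower, against the same shares, and the median was -0.11, 0.02 above all genes. The copper transporter gene Slc31a2 came nearest, at 0.98 from probes at 0.84 and 1.13, and passed 2-fold under 7 of 12 settings. Cox17, a copper carrier to cytochrome oxidase, was at -0.60.

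Glucocorticoids also induce metallothioneins, and of 5 genes they induce 1 was at least 2-fold higher and 0 lower, against the same 3.88% and 3.76%, with a median of 0.74 (0.87 above all genes). Sgk1 read 210 and 630 (1.40), Per1 226 and 454 (0.82), and Tsc22d3 was at 0.74 over 3 probes. Fkbp5 was at -0.92, with its 3 probes between -1.30 and -0.61. Klf9 was at 0.10, from probes at -0.13 and 0.32. The list did not share 1 direction, and the part of glucocorticoids in the ratios of Mt1 and Mt2 was not tested. Of the 5 genes by which myeloid cells withhold metals, 3 were measured and 2 were at least 2-fold higher, where 3.88% of all genes were. Those were S100a8, whose product pairs with that of S100a9 to bind zinc, at 6.17, and the siderophore binder Lcn2, at 4.05. The metal pump gene Slc11a1 was at 0.73, and S100a9 and Ltf were not well above background on either array.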

How the data were processed

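RNA of 1 control and 1 RCCS culture of RAW 264.7 was measured on 2 one-colour Agilent arrays of 1 slide. Per the file headers, the deposited spot intensity values were made with Agilent Feature Extraction 9.5.3.1 (the submitters' processing notes name the software without a version), with spatial and multiplicative detrending on and bright spots read at a low scanner gain. The authors' deposited table holds a ratio per probe, which matches the signal divided by 849 (control) and 964 (RCCS), with a median of 0.06 in both columns and a lowest value of 0.01. Which genome build the files' positions follow was not stated in them.

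Spots of a probe were averaged without outlier spots (0 on member probes; 0 spots were saturated) and scaled at the 75th percentile. A probe counted as measured where, on each array, 50% or more of its spots carried the software's flag for signal well above background; probes of 1 gene were averaged on the log2 scale. A probe above background on 1 array has a bound against the lowest signal so called (24.2 on the control array, 21.2 on the RCCS array). Symbols of 22951 probes came from the RefSeq table of GRCm38.p6 by accession; members were matched by the file's gene name. Named are all members, all other family genes above background, and the list genes at least 2-fold apart; others in the lists were chosen after their values were seen. Members and lists were chosen with earlier results of these data known. Alternatives were other scalings, quantile, loess, normexp (offset 50, limma 3.58.1), the deposited ratio table, filters on dim probes, probe rules and thresholds. Python 3.11.15 and R 4.3.3 were used, and the scripts were tested on simulated data.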

Additional observations from a re-analysis of the deposited data

How the results depend on the processing

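No paired analysis was possible because each group has 1 array. The count of members at least 2-fold higher, 0 as reported, became 1 with the 75th percentile of measured probes, with spike-in scaling, with quantile normalization, with loess on signal and with normexp followed by quantile normalization; that gene was Mt2, at 1.02, 1.19, 1.24, 1.26 and 1.20. It became 2 at a 1.5-fold threshold, a count that ran from 1 to 4 over the alternatives. The count of members at least 2-fold lower stayed at 0 under all 16 alternatives. The median of the members, 0.25, became 0.55 with spike-in scaling, which shifts the median of all genes by 0.31; relative to all genes it lay between 0.32 and 0.49 under the 14 alternatives that set values. The other scalings that shift it by over 0.1 were the 75th percentile of measured probes (0.14) and loess (0.13), and keeping dim probes gave a shift of -0.12. The calls over all genes were 50.8% higher, against 82.1% with spike-in scaling, 66.7% with the 75th percentile of measured probes, 64.0% with loess and 62.6% with normexp and quantile normalization. Mt1, Mt2, Mtf1, Slc39a6 and Slc39a14 had log2 ratios above 0 under all 14. Slc30a1 came to -0.16 with the brightest probe or with the 5′ probe, the latter chosen after the data were seen, and Slc30a5, Slc39a1 and Slc39a10 turned above 0 under 2, 3 and 1, reaching 0.14, 0.16 and 0.13 with spike-in scaling. The deposited ratio table gave the same member counts as the main values. Precision is limited by the number of arrays, and below a signal of about 100 by the margin over background.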
